A study of Homo sapiens with 5 samples.

Results

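In HT1376 cells, an established human bladder carcinoma line, 1896 stretches of the genome were called as bound by EZH2 in vehicle-treated cells and were called in none of the other 3 ChIP lists of the series. They are EZH2 DMSO domains, formed by merging overlapping listed intervals, that have no base in common with a domain of EZH2 after CPI-0209 or of H3K27me3 in either condition. The members were chosen by these measured calls, so their absence from the other 3 lists is the selection itself and not a result. They make up 1896 of 18639 EZH2 DMSO domains (10.2%, 9.74 to 10.6) and 1896 of 83524 merged domains over the 4 lists. An annotated gene start lay inside 21.8% of them, most lay inside genes or between genes, and a few formed runs of very wide calls, the longest of them around AHR on chromosome 7.

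Chromatin immunoprecipitation with sequencing (ChIP-seq) was done on cells given DMSO, or 250 nM of the EZH2 inhibitor CPI-0209, with 8 days of treatment stated in the labels. Antibodies to EZH2 and to H3K27me3 were each used on both treatments, which gives 4 groups of 1 library from the same line. The input library was not analysed here, nor was any sample of the 4-day time point or the H3K27ac antibody that the labels also mention. The EZH2 list after CPI-0209 was the longer of the EZH2 pair, with 27406 merged domains. The lists give positions in hg38 and no score or read count, so depth is unknown, and a domain missing from a list may still carry signal below the caller's threshold. With 1 library per group no test between conditions was possible. Limits in brackets after a share are exact (Clopper-Pearson) 95% binomial limits. Those after a median width are 95% limits taken from the ranked widths. Both kinds cover counting error only, and neighbouring domains are not independent. For a count of 0, the share it allows is instead given as 3 counts of the total. The lists hold no expression values, so the line was not checked against cell type markers.

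Polycomb repressive complex 2 (PRC2) methylates lysine 27 of histone H3, and EZH2 is its enzyme. Its trimethylated product, H3K27me3, marks silent genes, above all CpG-rich promoters of developmental regulators such as the HOX genes. CPI-0209 blocks the enzyme's activity and is not designed to remove the protein. Chromatin outside H3K27me3 includes active promoters, enhancers and unmarked sequence, and the lists do not tell these apart.

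Promoter sequences of 6 members are printed as examples and were not chosen to represent all members. Windows in the widest members, from which 4 of them come, were less often CpG-rich than member windows in general, as given below. Each is the 250 bases upstream of an annotated start, 5′ to 3′, from RefSeq (GRCh38.p14, the assembly of hg38), with every CpG dinucleotide in capitals. The first 4 come from the widest members that hold a whole protein-coding promoter, and the 2 zinc finger genes stand for the list of protein-coding genes with the most members.
PMM2, chr16:8797589-8797838, plus strand: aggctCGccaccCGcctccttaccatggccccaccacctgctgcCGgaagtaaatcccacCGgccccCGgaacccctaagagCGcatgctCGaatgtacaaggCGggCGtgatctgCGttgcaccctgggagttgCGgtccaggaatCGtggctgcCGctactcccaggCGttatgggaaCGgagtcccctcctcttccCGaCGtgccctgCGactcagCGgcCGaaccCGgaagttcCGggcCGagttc
LOC124904962, chr20:22744420-22744669, plus strand: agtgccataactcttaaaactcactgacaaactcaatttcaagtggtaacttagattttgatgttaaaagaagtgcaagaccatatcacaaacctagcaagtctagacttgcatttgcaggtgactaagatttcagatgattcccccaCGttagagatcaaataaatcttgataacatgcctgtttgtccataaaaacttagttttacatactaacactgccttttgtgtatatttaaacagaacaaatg
SLC1A3, chr5:36606356-36606605, plus strand: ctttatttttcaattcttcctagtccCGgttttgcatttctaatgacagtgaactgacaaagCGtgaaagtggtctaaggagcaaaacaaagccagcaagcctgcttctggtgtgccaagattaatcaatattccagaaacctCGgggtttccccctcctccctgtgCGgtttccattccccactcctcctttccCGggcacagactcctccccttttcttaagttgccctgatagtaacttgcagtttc
RETREG1, chr5:16508999-16509248, minus strand: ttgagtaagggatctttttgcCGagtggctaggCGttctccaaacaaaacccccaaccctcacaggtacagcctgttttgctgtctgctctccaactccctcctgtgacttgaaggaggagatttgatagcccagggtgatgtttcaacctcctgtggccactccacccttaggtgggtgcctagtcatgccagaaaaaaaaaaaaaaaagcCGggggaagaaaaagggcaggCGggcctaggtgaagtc
ZNF561, chr19:9621233-9621482, minus strand: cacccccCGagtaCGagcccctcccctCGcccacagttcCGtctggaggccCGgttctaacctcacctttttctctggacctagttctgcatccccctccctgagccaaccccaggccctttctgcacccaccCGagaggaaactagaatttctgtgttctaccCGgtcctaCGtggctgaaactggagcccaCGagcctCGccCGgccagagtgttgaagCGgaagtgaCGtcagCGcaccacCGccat
ZNF616, chr19:52139939-52140188, minus strand: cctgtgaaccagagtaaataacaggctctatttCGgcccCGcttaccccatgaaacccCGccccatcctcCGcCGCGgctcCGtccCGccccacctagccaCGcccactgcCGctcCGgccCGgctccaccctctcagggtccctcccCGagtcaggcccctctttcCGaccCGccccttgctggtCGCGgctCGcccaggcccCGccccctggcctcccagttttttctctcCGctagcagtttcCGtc
PMM2, a phosphomannomutase of protein glycosylation, had 23 CpG in the window and 65.6% G+C, under a 28.4 kb member (chr16:8788801-8817200) that also held the whole of TMEM186. The start used for SLC1A3, a glutamate transporter, had 5 CpG under a 23.6 kb member (chr5:36604001-36627600), and that of RETREG1, a receptor for autophagy of the endoplasmic reticulum, had 4 under a 20.8 kb member. LOC124904962 had 1 CpG and 34.0% G+C under a 28.0 kb member. ZNF561 had 15 CpG under a 6.60 kb member and ZNF616 had 21 under a 4.6 kb member. Among these 6, the CpG-rich windows were those of PMM2 and of both zinc finger genes.

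The domains were mostly narrow. Their median width was 4.00 kb (3.8 to 4.20), with quartiles of 2.60 and 6.60 kb and extremes of 0.40 and 229.6 kb, and together they covered 10.7 Mb, or 5.55% of the 193.4 Mb of EZH2 DMSO domains. EZH2 domains outside H3K27me3 that were called in both conditions, 5852 in number and named stable below, had a median of 4.40 kb (4.20 to 4.40). The 432 EZH2 domains called in DMSO alone but on H3K27me3 had a median of 5.20 kb, and the 5249 called in CPI-0209 alone and outside H3K27me3 one of 2.60 kb. Domains called in both conditions on H3K27me3 were wider, at 9.20 kb. A wider domain has more bases at which it can meet another list, so widths are partly set by the selection and carry no test.

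**Figure D1:**
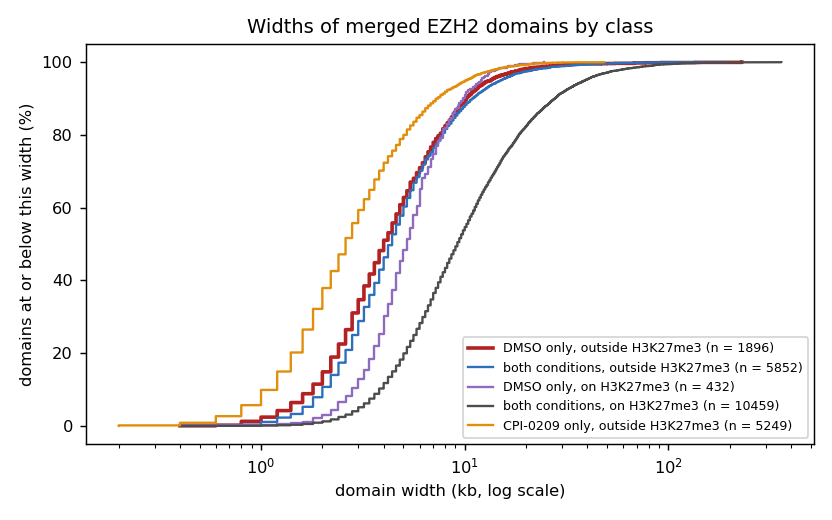
Cumulative share of merged EZH2 domains (y axis, percent) by width (x axis, kb, log scale) in 5 classes. The DMSO-only domains outside H3K27me3 (red, median 4.00 kb) run close to the stable domains (blue, 4.40 kb) and left of those on H3K27me3 in both conditions (grey, 9.20 kb).

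Of the 7748 EZH2 DMSO domains outside H3K27me3, 24.5% had no EZH2 CPI-0209 domain, against 3.97% of the 10891 on H3K27me3 and 12.5% of all 18639. These shares are the contrast that defines the members and are given as a description. Domains near the edge of the rule were few: 30 members lay within 1 kb of a domain of another list, and 158 non-members shared under 1 kb with the other lists in all. The 3 closest members touched an EZH2 CPI-0209 domain without overlapping it, in PVT1 (chromosome 8), KDM2A (chromosome 11) and SLC38A2 (chromosome 12), and were 10.8, 10.2 and 2.40 kb wide. The 3 nearest non-members shared 200 bp with an EZH2 CPI-0209 domain, on chromosome 4 between genes, in PDE6G (chromosome 17) and in OSER1 (chromosome 20), and were 3.40, 2.0 and 6.60 kb wide.

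The listed intervals behind the members seldom overlapped. The DMSO list holds overlapping intervals at some places, for a reason the labels do not state, and 77 of 1896 members (4.06%, 3.22 to 5.05) were joined from 2 or more of them. For stable domains this share was 40.4% (39.2 to 41.7). Within widths of 2 to under 4 kb the shares were 3.45% (2.22 to 5.09) and 28.5% (26.5 to 30.5), and at 8 kb and wider they were 4.90% (2.88 to 7.73) and 60.7% (57.8 to 63.6), so the gap was present at each of these widths. Domains called in CPI-0209 alone and outside H3K27me3 had 5.75% joined in their own list. On H3K27me3, the share was 0.926% (0.253 to 2.35) of EZH2 domains called in DMSO alone and 23.5% (22.7 to 24.3) of those called in both conditions. A low share was thus not particular to the members.

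Most members lay away from gene starts. A gene start, as RefSeq places it, was inside 392 of the 1796 members on the 22 chromosomes with start positions in the table used (21.8%, 19.9 to 23.8), against 4263 of 5635 stable domains (75.7%, 74.5 to 76.8). Among domains called in CPI-0209 alone the share was 52.6% (51.3 to 54.0), and among those called in DMSO alone on H3K27me3 it was 7.77% (5.37 to 10.8). Members stood between the DMSO-only domains on H3K27me3 and both other classes, with limits that did not overlap. The order of members and stable domains was the same in every width bin: 32.9% against 69.5% under 2 kb, 22.2% against 77.2% from 2 to under 4 kb, 16.8% against 76.6% from 4 to under 8 kb, and 23.3% against 73.5% at 8 kb and wider. The table holds starts for 15812 of 19974 protein-coding genes, so each share can miss starts.

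**Figure D2:**
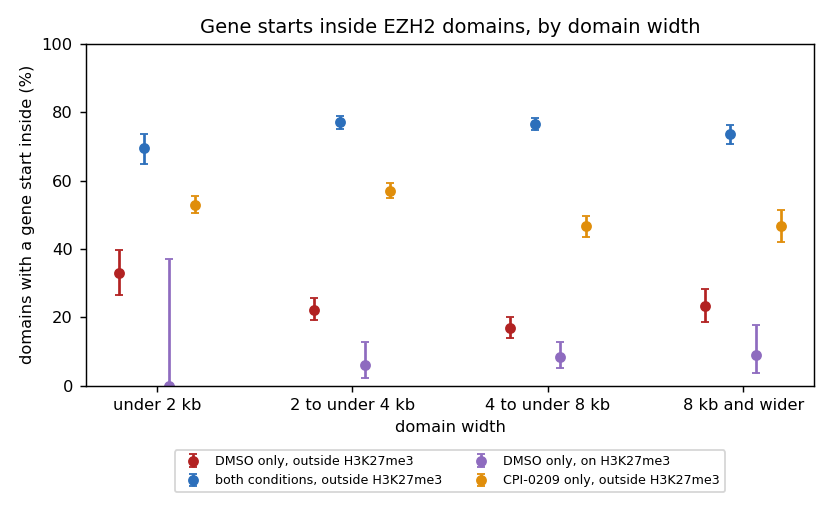
Share of EZH2 domains with a gene start inside (y axis, percent) in 4 width bins (x axis), with points for 4 classes and bars for exact 95% binomial limits. Members (red) sit at 16.8 to 32.9%, below stable domains (blue, 69.5 to 77.2%) and domains called in CPI-0209 alone (orange) in each bin.

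By gene records of all types, 773 members (40.8%, 38.5 to 43.0) had an end of a record within 2 kb, 719 (37.9%, 35.7 to 40.1) lay in a gene body without an end nearby, and 404 (21.3%, 19.5 to 23.2) were intergenic. The stable domains split into 87.1%, 8.68% and 4.25%. Widths hardly differed between these places among members, with medians of 4.00, 4.20 and 3.8 kb. Of the 1404 members with no gene start inside, the median distance to the nearest start was 27.6 kb, and 422 lay more than 50 kb away, which is 23.5% of the members on those chromosomes against 5.91% of stable domains. A divergent pair of starts within 1 kb, the layout of bidirectional promoters, was held by 66 of the 392 start-bearing members (16.8%, 13.3 to 20.9) and by 27.3% (25.9 to 28.6) of start-bearing stable domains. Where a member held exactly 1 start and this was protein-coding (200 members), its centre lay a median of 0.062 kb downstream of the start, and downstream in 111 of them (55.5%, 48.3 to 62.5). The quartiles were -0.42 and 0.63 kb, and for stable domains the median was 0.166 kb with quartiles of -0.30 and 0.73 kb; the choice of domains that hold the start itself limits these offsets.

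Calls of the other lists seldom lay within 10 kb of a member. The rule bars any shared base with these lists, so the gaps to them are partly set by the selection and are a description. The same gaps were not measured for other classes. The nearest EZH2 CPI-0209 domain was a median of 38.8 kb away (quartiles 14 and 94.7 kb), and 362 members (19.1%) had one within 10 kb. H3K27me3 was farther, at a median of 141.2 kb for the DMSO list and 236.8 kb for the CPI-0209 list, and 97 members (5.12%) had an H3K27me3 domain of either condition within 10 kb. Lists with fewer or narrower domains give longer gaps, so the 3 distances are not comparable as measures of attraction. The next EZH2 DMSO domain of any class was a median of 31.7 kb away for members and 30.3 kb for stable domains. For 934 members (49.3%) this neighbour was a stable domain, for 648 (34.2%) another member, and for 297 (15.7%) an EZH2 domain on H3K27me3 called in both conditions. In the same order, these classes made up 31.4%, 10.2% and 56.1% of all EZH2 DMSO domains. These shares are no background for a nearest neighbour, because the rule keeps members off H3K27me3 and the classes differ in spacing. Domains on H3K27me3 called in both conditions had their next EZH2 DMSO domain a median of 6.2 kb away. The neighbour classes are a description.

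**Figure D3:**
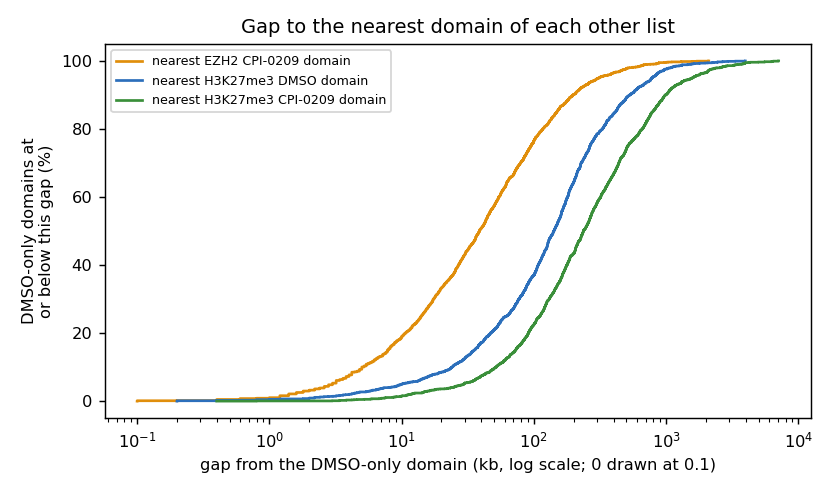
Cumulative share of the 1896 DMSO-only domains (y axis, percent) by the gap to the nearest domain of each other list (x axis, kb, log scale). The median gap is 38.8 kb to EZH2 CPI-0209 (orange), 141.2 kb to H3K27me3 DMSO (blue) and 236.8 kb to H3K27me3 CPI-0209 (green).

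The widest members were few and gathered in a handful of places. Only 33 members reached 20 kb and 7 reached 50 kb, and those 7 held 6.73% of the member length; all EZH2 DMSO domains of 50 kb or more numbered 333. The widest was a 229.6 kb domain on chromosome 6 (chr6:19253001-19482600) over uncharacterised loci and pseudogenes, with its nearest protein-coding start, ID4, 354.8 kb away and the nearest EZH2 CPI-0209 domain 261.2 kb away. Next came a 134.8 kb domain on chromosome 7 (chr7:17594801-17729600) and one of 91.8 kb (chr7:17328201-17420000). The first was intergenic, with SNX13 as its nearest protein-coding start, 210.9 kb away, and the second overlapped the end of AHR. On chromosome 1, domains of 68.0 kb (chr1:94589201-94657200) and 54.6 kb (chr1:94695801-94750400) lay over parts of the antisense gene SLC44A3-AS1, between F3, the tissue factor gene, and SLC44A3. A 49.8 kb domain on chromosome 5 was intergenic, with RANBP3L as its nearest protein-coding start, and a 46.6 kb domain on chromosome 1 ran along the end of TRIT1. All 12 of the widest members were single listed intervals. The widest members inside a gene body without an end nearby were in RCSD1 (35.2 kb), FOXJ3 (26.2 kb), PTK2 (24.0 kb) and SLC1A3 (23.6 kb).

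The run around AHR held the most member length of any 1 Mb window. AHR encodes the aryl hydrocarbon receptor, a ligand-activated transcription factor that responds to xenobiotics. Between 16950001 and 17729600 on chromosome 7, 6 members of 67.6, 31.2, 30.6, 91.8, 76.8 and 134.8 kb covered 432.8 kb. All EZH2 DMSO domains in this 779.6 kb span covered 515.2 kb, while EZH2 CPI-0209 covered 11 kb and neither H3K27me3 list covered any. The start of AHR itself was under a 7th EZH2 DMSO domain of 82.4 kb, which is no member because an 11 kb EZH2 CPI-0209 domain lies within it, at -7.05 to 3.95 kb from the start. The 2 conditions thus shared the call at the AHR start, and the wide calls on either side were in the DMSO list alone.

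**Figure D4:**
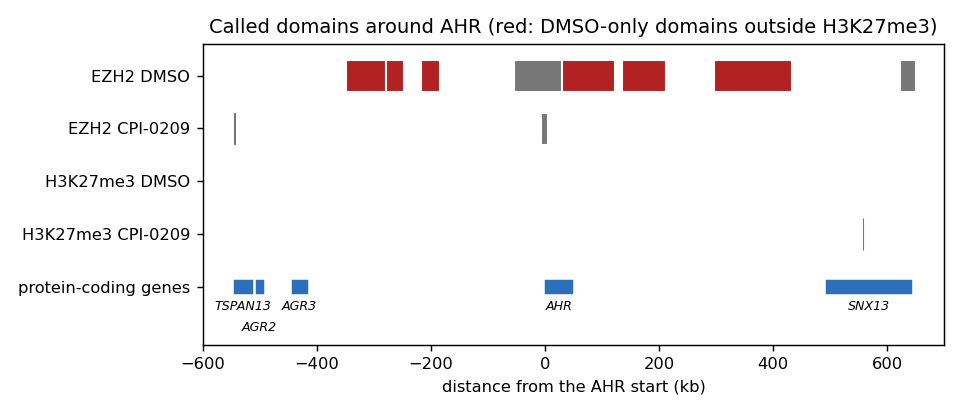
Domains of the 4 lists and protein-coding genes around AHR, by distance from the AHR start (x axis, kb). The 6 DMSO-only domains outside H3K27me3 (red) flank the 82.4 kb EZH2 DMSO domain (grey) at the start, under which the EZH2 CPI-0209 list has 1 domain of 11 kb.

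Other windows held more members of ordinary width. Counting starts within 1 Mb, the fullest window ran over TPRG1, TP63 and P3H2 on chromosome 3 (189264001 to 190267400), with 13 members of 2.20 to 18.8 kb among 18 EZH2 DMSO domains. EZH2 DMSO domains covered 159.2 kb of it, EZH2 CPI-0209 domains 27.2 kb and the H3K27me3 lists none. TP63 encodes p63, a master regulator of basal and squamous epithelium. A window with 9 members lay over PRKCE and EPAS1, the gene of hypoxia-inducible factor 2 alpha, on chromosome 2, and 8 members each lay around MYC, CASC8, CCAT2 and PVT1 on chromosome 8, at RAB31 on chromosome 18, and at MTHFD2L and EPGN beside the CXC chemokine genes on chromosome 4. In the order given, EZH2 DMSO domains covered 91.6, 113.6, 97.6 and 134.2 kb of these 4 windows, and EZH2 CPI-0209 domains covered 32.8, 33.0, 20 and 43.4 kb. H3K27me3 covered 8.40 kb in DMSO and 2.40 kb with CPI-0209 of the EPAS1 window, 54.8 and 5.20 kb of the chemokine window, and none of the other two. All windows, that of AHR included, were picked for holding many members, which lack EZH2 CPI-0209 by the rule, so a larger coverage by the DMSO list there follows from the choice and is a description. A ranking by length was chosen after the values were seen. After AHR it gave the window of the 229.6 kb domain with RNF144B on chromosome 6. Then came those of SLC44A3-AS1 with ABCA4 and ABCD3, of TRIT1 and PPT1, and of LIMA1, DIP2B and TFCP2 on chromosome 12. In that order, H3K27me3 covered 21.8, 69.8, 175.6 and 0 kb of these windows in DMSO. With CPI-0209 it covered 0, 0, 87.4 and 0 kb. In all, 1202 members (63.4%) lay in some 1 Mb window with at least 3 members, while the median gap between neighbouring members was 482.6 kb. That share was not counted for the other classes of EZH2 DMSO domains, so it has no background and is a description.

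Inside genes, members were found in long hosts. The 719 members in a gene body without an end nearby included 594 in a protein-coding gene, and their 495 host genes had a median length of 139.8 kb, against 24.2 kb for all protein-coding genes; a long gene offers more room for a domain. An end of 229 hosts (46.3%, 41.8 to 50.8) was within 2 kb of a stable EZH2 domain, against 30.3% of all protein-coding genes, and 59 (11.9%, 9.20 to 15.1) had an end at an EZH2 DMSO domain on H3K27me3, against 23.8%. The order at stable domains held at each length, from 50.6% of 79 hosts against 30.4% of all genes under 50 kb to 38.9% of 175 hosts against 21.1% at 200 kb and longer. The lower share on H3K27me3 is partly set by the selection, which keeps members off the mark.

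Of 994 protein-coding genes with a member base in their body, 39 held 3 or more members. PHLDB2, a microtubule-anchoring protein of cell adhesions, held 6 members with 57.3 kb of its 244.0 kb. FNDC3B and SPIDR held 5 each. LIMA1, an actin-bundling protein of epithelial cells, held 4 with 62.0 kb of its 107.7 kb. EGFR, the epidermal growth factor receptor, held 4 with 43.0 kb of 192.6 kb. TEAD1, the DNA-binding partner of YAP1, and TP63 held 3 each, with 38.0 and 22.2 kb. With non-member domains included, EZH2 DMSO domains covered 70.0 kb of EGFR, 58.4 kb of TEAD1 and 34 kb of TP63, and EZH2 CPI-0209 domains 5.18, 15.2 and 2.20 kb. These genes were picked for their members, so the direction of that difference follows from the choice. At PHLDB2, SPIDR, LIMA1, EGFR, TEAD1 and TP63, but not FNDC3B (1.20 kb with CPI-0209), no H3K27me3 was called in the gene in either condition. Some others of the 39 genes did hold it. In DMSO and with CPI-0209, H3K27me3 covered 57.3 and 2.67 kb of KIAA1217, 42.2 and 5.99 kb of FRMD4B, and 40.2 and 27.2 kb of SYN3.

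Of all 59098 gene records, 1069 (1.81%) had an end within 2 kb of a member. Among these were 503 of 19974 protein-coding genes (2.52%), 373 of 18177 lncRNA genes (2.05%), 12 of 443 tRNA genes (2.71%), 23 of 1911 microRNA genes (1.2%), 13 of 1196 snoRNA genes (1.09%), 2 of 154 snRNA genes (1.3%) and 116 of 15212 pseudogenes (0.763%). Stable domains were at 30.3% of the protein-coding genes domains called in CPI-0209 alone at 19.3%, those on H3K27me3 in both conditions at 23.5% and those called in DMSO alone on H3K27me3 at 0.335%. Both ends lay within 2 kb of the same member at 24 protein-coding genes, of which the 10 with the widest members were TMEM186, LOC124904962, SNAI2, CHCHD2, EID3, SPRR3, RFX5, FGFBP1, H2AC18 and H2AC19. SNAI2, a transcription factor of epithelial-mesenchymal transition, had a 15.0 kb member on chromosome 8. The members were 9.20 kb at CHCHD2, a mitochondrial protein, 8.40 kb at SPRR3, a cornified envelope precursor, 8.20 kb at RFX5, a subunit of the activator of MHC class II genes, and 7 kb at FGFBP1, a carrier of fibroblast growth factors.

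Listed genes were read against that 2.52%. Respiratory complex I genes, which encode the NADH dehydrogenase of mitochondria and its assembly factors, had 6 of 45 at members (13.3%, 5.05 to 26.8): NDUFS5, NDUFA12, NDUFB6, NDUFAF1, NDUFAF2 and NDUFS4. Their members were 1.60 to 5.60 kb wide, and 28 of the 45 genes had an end at a stable domain. Zinc finger genes had 22 of 509 (4.32%, 2.73 to 6.47), with the widest members at ZNF561, ZNF385A, ZNF616, ZNF20, ZNF362 and ZNF627, from 6.60 down to 3.2 kb. Both lower limits lay above 2.52%, out of 26 lists compared and without adjustment for that number. ZNF701 and ZNF808 were beside the same 2.4 kb member, and ZNF568 and ZNF829 beside the same 1.2 kb member. The zinc finger limits count such pairs as separate genes, and their lower limit of 2.73% is close to 2.52%. No enrichment of zinc finger genes is read from it. Solute carrier genes had 6 of 386 (1.55%, 0.573 to 3.35), namely SLC47A2, SLC26A11, SLC9B1, SLC9B2, SLC30A6 and SLC25A10.

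Other lists of genes active in most cells had few members and limits that held the background share. Proteasome genes gave 4 of 50 (PSMB5, PSMC2, PSMB9 and PSMA3), mitochondrial ribosomal proteins 4 of 78 (MRPS10, MRPS16, MRPL13 and MRPL24) and cytosolic ribosomal proteins 4 of 85 (RPL22L1, RPS27L, RPL7L1 and RPS4X). Aminoacyl-tRNA synthetases gave 2 of 37 (SARS1 and WARS2), initiation factors 2 of 55 (EIF3L and EIF4A2) and DNA repair genes 2 of 40 (BRCA2 and XRCC2). Mediator subunits gave 0 of 30, which allows up to 10.0%, and cell cycle and replication genes 0 of 38, which allows up to 7.89%. Stable domains were at 66 of the 85 cytosolic ribosomal protein genes, 22 of the 50 proteasome genes and 14 of the 30 Mediator genes.

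Replication-dependent histone genes gave 3 of 77, H2AC18, H2AC19 and H4C15, all beside the same 6.80 kb member (chr1:149843601-149850400), and 54 of the 77 were at stable domains. These 3 genes have near-identical copies, so reads there may not be uniquely placed. The tRNA genes at members were 12 on 7 domains, with TRQ-TTG3-1, TRQ-TTG3-2, TRS-TGA3-1 and TRX-CAT1-3 on 1 domain of 3.60 kb on chromosome 6 TRR-ACG1-3 under the widest, of 5 kb, and TRE-CTC1-7 under one of 3.2 kb. Named small nucleolar RNA genes gave 11 of 539 (2.04%), with SNORA4, SNORA63, SNORA63B, SNORA81 and SNORD2 beside the same 4.80 kb member in EIF4A2 and SNORD164 at a 14.8 kb member. The list of 44 named small nuclear RNA genes, a subset of the 154 snRNA records, gave 0, which allows up to 6.82%. Of 1911 microRNA genes the 23 at members were led by MIR378G (54.6 kb member), MIR1293 (17.4 kb), MIR5572 (13.8 kb), MIR3927 (12.8 kb), and MIR181A2 and MIR181B2 (the same 12.2 kb member).

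The lists of HOX and of forkhead, SOX, PAX and T-box genes had no member, which the selection favours because most of these genes had EZH2 domains on H3K27me3. HOX genes gave 0 of 39 (up to 7.69%), and all 39 were at EZH2 DMSO domains on H3K27me3. Forkhead, SOX, PAX and T-box genes gave 0 of 94 (up to 3.19%), olfactory receptors 0 of 390 (up to 0.769%), and PRC2 and H3K27 demethylase genes 0 of 14 (up to 21.4%). EZH2 DMSO domains of any class were at only 17 of the 390 olfactory receptor genes, and at 7 of the 14 PRC2 and demethylase genes. Potassium channel genes gave 2 of 96 (KCNN4 and KCNJ16) and collagen genes 3 of 44 (6.82%, 1.43 to 18.7), the basement membrane chains COL4A3, COL4A5 and COL4A6. COL4A5 and COL4A6 were beside the same 0.6 kb member, and with gene ends within 1 kb the collagen list gave 1 gene. In the epithelial lists, UPK1B, a uroplakin of the bladder surface, was the 1 of 24 luminal urothelial genes, and SPRR3 and SPRR1B, cornified envelope precursors, were the 2 of 25 basal and squamous genes. Of 39 antigen presentation and interferon response genes, 3 were at members: RIGI, an RNA sensor, OAS1, an RNA-sensing synthetase, and PSMB9, an immunoproteasome subunit.

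Promoters under members were poorer in G+C than those under stable domains. Of 22132 protein-coding start windows in the table (250 bases upstream, several per gene where it lists several starts), 423 overlapped a member. Their median G+C was 57.6%, against 65.6% at 6340 windows under stable domains and 62.0% over all windows. The ratio of observed to expected CpG had medians of 0.77, 0.84 and 0.71, so members lay between the other groups on that measure. A ratio of 0.6 or more, a usual mark of CpG islands, was reached by 301 windows at members (71.2%, 66.6 to 75.4), 86.0% (85.1 to 86.8) at stable domains and 60.2% (59.6 to 60.9) overall. This share fell with member width, from 90.7% (82.5 to 95.9) of 86 windows in members under 2 kb through 75.1% and 67.3% to 34.0% (21.5 to 48.3) of 53 windows at 8 kb and wider. Under stable domains it was 89.5% and 77.9% (75.5 to 80.1) in the same outer bins. The limits overlapped under 2 kb and did not overlap at 8 kb and wider, a bin that holds the CpG-poor windows printed for LOC124904962, SLC1A3 and RETREG1 and the CpG-rich one of PMM2.

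**Figure D5:**
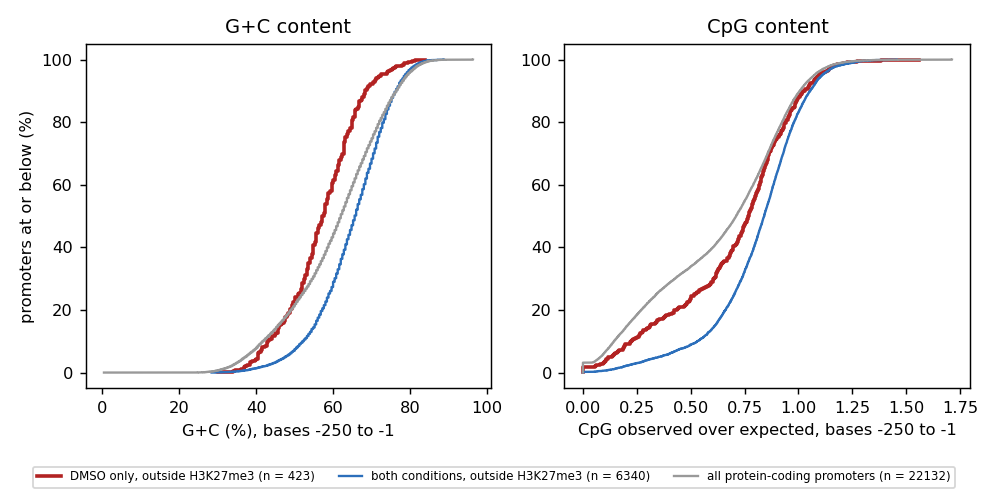
Cumulative share of protein-coding promoter windows (y axis, percent) by G+C content and by the ratio of observed to expected CpG (x axes) for windows at members (red, n = 423), at stable domains (blue, n = 6340) and overall (grey, n = 22132). Median G+C is 57.6%, 65.6% and 62.0%.

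Short motifs were searched in the same windows on both strands. The ETS motif CCGGAAG was in 23.9% (19.9 to 28.2) of windows at members, 17.3% (16.3 to 18.2) at stable domains and 10.7% overall. The GC box GGGCGG was in 45.6% (40.8 to 50.5), 69.1% (67.9 to 70.2) and 53.7%, and the tetramer CGCG in 58.6%, 78.9% and 58.2%. The AP-1 motif TGANTCA was in 6.38% (4.25 to 9.15), 3.30% (2.87 to 3.77) and 5.35%. CCAAT was in 37.4% (32.7 to 42.2), 34.9% and 32.7%, the E box CACGTG in 8.27%, 9.10% and 7.37%, TATAAA in 7.57%, 4.76% and 9.0%, and TGACGTCA in 3.31%, 3.09% and 2.02%. Windows at members held the ETS and AP-1 motifs more often, and the GC box and CGCG less often, than windows at stable domains, with limits that did not overlap. The ETS motif, the GC box and CGCG each contain CpG and can overlap one another; G+C content was lower at members, and its part in these shares was not tested. A match is only these letters in a window.

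Members were on every chromosome examined. As a share of the EZH2 DMSO domains outside H3K27me3 they ranged from 12.6% (9.44 to 16.3) on chromosome 19, through 15.4% (11.4 to 20.2) on chromosome 16, to 31.5% (26.5 to 37.0) on chromosome 8 and 33.3% (26.3 to 41.0) on chromosome 18. Chromosome 1 had the most, at 195 members and 1.42 Mb, and chromosome 21 the fewest, at 19. Their shares were 21.8% (19.1 to 24.6) and 26.0% (16.5 to 37.6), with limits that held the 24.5% over all chromosomes. The 12.6% of chromosome 19 was below that 24.5%, with limits that did not reach it. Limits also lay below 24.5% on chromosomes 16, 17 and 20, and above it on chromosomes 3, 5, 8 and 18.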

How the data were processed

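Each deposited list (1 per ChIP library) holds interval positions alone: no score, count or p-value. Per the submitters' processing notes BWA, SICER and hg38 were used; versions, settings and the control for calling are not given in sources used here. Every start and width is a multiple of 200 bp. Starts count from 0 in the files and from 1 here. Overlapping intervals were merged within each list, and an overlap of 1 bp counted as shared (Python 3.11.15, numpy 2.4.6). Interval functions were tested on simulated intervals against base-by-base counting.

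Gene records (59098), and start windows for 27195 genes on 22 chromosomes, came from RefSeq tables of GRCh38.p14; chromosome 8 was not used for starts or promoters. All 2535 overlapping window pairs on opposite strands agreed as reverse complements. A gene was at a domain when either end of its record lay within 2 kb of it.

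Members and gene lists were chosen with earlier results of these data known. Named by rule were the 12 widest members, the 4 widest per location, the 3 members and 3 non-members nearest the edge, list genes at members (all where 8 or fewer, otherwise the 6 with the widest), the 10 genes with both ends at the widest members, the 5 densest windows, and promoters, of which 6 of 8 are printed. The result of 1 gene list is not reported here. Of 503 protein-coding genes at members, 426 had a start window. Host genes and the windows ranked by length were chosen after their values were seen.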

Additional observations from a re-analysis of the deposited data

How the results depend on the processing

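No paired analysis was possible because each group has 1 library, and leaving out a library leaves no group. Counting an overlap only where it covers 50% or more of the domain gave 3394 members, 22.5 Mb, a median of 5.0 kb, 60.6% near a gene end, 54.6% with an EZH2 CPI-0209 domain within 10 kb and 9.28% with H3K27me3 within 10 kb. Barring other domains within 5 kb gave 9.34% and 2.21% for these 2 shares, and joining gaps up to 5 kb gave 11.9% for the first. Domains of at least 2 kb had a median of 4.40 kb. The share near a gene end was 37.4% within 1 kb, 50.3% within 5 kb and 23.8% for starts within 2 kb. Most members thus lay near a gene end with the 50% overlap setting, and narrowly with ends within 5 kb. Under the main rule 40.8% did. An EZH2 CPI-0209 domain lay within 2 kb of 3.27% and within 50 kb of 57.4%, and H3K27me3 within 2 kb of 0.949% and within 50 kb of 21.2%. With all genes the median CpG ratio was 0.72. The counts of members and of protein-coding and listed genes stayed within 1.5 times of those reported under every other setting run. Leaving out members of 50 kb or wider, and joining touching intervals, were chosen after seeing the data and moved nothing beyond these bounds. Of the counts for single gene lists, 17 moved by over 1.5 times or to or from 0; complex I gave 5 to 6 genes and zinc finger genes 19 to 27. Depth is unknown, so signal under the caller's threshold cannot be told apart from absence.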

Other observations

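Several genes were singled out after their values were seen, and they carry no test. The start of CD274, which encodes the immune checkpoint ligand PD-L1, lay inside a 4.20 kb member (chr9:5449801-5454000), and a 7.4 kb member covered the beginning of the record of the neighbouring PDCD1LG2, the gene of PD-L2. EZH2 CPI-0209 covered no base of either gene, and the nearest H3K27me3 domain was 433.4 and 371.4 kb away. At EHF, an epithelial ETS-family factor, an 18.4 kb member held both annotated starts, while EZH2 CPI-0209 covered 5.60 kb elsewhere in the gene. UPK1B had members of 10.2 and 6.0 kb, and ANXA1, the calcium-dependent phospholipid-binding protein annexin A1, ones of 14.8 and 4.80 kb, and EZH2 CPI-0209 covered no base of either gene. ITGB6, an epithelial integrin subunit, had a 4.80 kb member over its start, 136.2 kb from the nearest EZH2 CPI-0209 domain. At CLDN1, a tight junction protein, a 10.6 kb member lay at an end of the record, off its annotated start, and EZH2 CPI-0209 covered 1.65 kb of the gene. YAP1, the transcriptional coactivator of the Hippo pathway, had a 9.20 kb member inside its record and within 2 kb of an end. EZH2 CPI-0209 covered 2.35 kb of the gene. A member did not always go with less EZH2 CPI-0209 than EZH2 DMSO in the gene. KRT80 had a member near an end of its record, with 9.41 kb of EZH2 CPI-0209 and 6.21 kb of EZH2 DMSO in the gene. TNC had a member inside its record, with 6.76 kb of EZH2 CPI-0209 and 6.4 kb of EZH2 DMSO.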
